A study of Homo sapiens with 4 samples.

Results

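Interferon-stimulated genes were examined in the established human stomach cancer line MKN45 after treatment with LPS (lipopolysaccharide, an outer-membrane glycolipid of Gram-negative bacteria) of Helicobacter pylori. The 41 genes were chosen by name, and each was represented by the brightest of the Affymetrix probe sets that the platform annotation gives to that symbol alone. Such a probe set was found for 40 of the 41 genes, out of 19775 genes in all, and faint probe sets were kept. STAT2 had none under its symbol alone in the annotation used and was not analysed here. There were 2 arrays of cells given medium with 10 µg/ml LPS and 2 arrays of cells given fresh medium (untreated), all with RNA taken 8 h later. All arrays came from the same unmodified line, and the series text speaks of 2 independent experiments without saying whether the replicate numbers mark them. The comparison asks which transcripts respond to H. pylori LPS.

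Interferons are secreted proteins that put cells into an antiviral state. Type I and type III interferons bind their receptors, Janus kinases phosphorylate STAT proteins, and a complex of STATs with IRF9 binds the interferon-stimulated response element (ISRE) in promoters. Interferon gamma acts through STAT dimers at gamma-activated sites (GAS). In macrophages LPS can start this programme through TLR4, the adaptor TRIF and IRF3, which induce interferon beta, whereas the NF-kB branch of the same receptor induces chemokines.

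The promoters of these genes were searched for the letters of such elements. RefSeq promoter windows (GRCh38.p14, from 250 bases before to 50 after the annotated start) were available for 33 of the 41 genes. The ISRE core (GAAA, any 2 bases, GAAA) was searched on both strands, and overlapping matches were counted. It was present in 21 of 33 promoters (63.6%), against 453 of 15384 promoters of fitted genes (2.94%). The GAS letters (TTC, any 3 bases, GAA), whose pattern is the same on both strands, were present in 10 of 33 (30.3%), against 6.95% of fitted genes. NF-kB-type letters (GGGA, any 4 bases, CC, on either strand) were present in 11 of 33 (33.3%), against 29.1%. Matches are letters in a window and do not show binding. Below are 4 members with ISRE letters in capitals, of which ISG15 and IFIT1 are shown as well-known interferon effectors, IFIH1 for the lowest difference of the members and IFITM1 for the smallest p. IRF1 is shown with its GAS letters in capitals. CCL20, a chemokine gene that rose with LPS, is shown for contrast with its NF-kB-type letters in capitals. Each stretch is 260 bases, ends 10 bases after the start and reads 5′ to 3′ on the gene's strand. The positions were chr1:1013247-1013506 (+) for ISG15, chr10:89392373-89392632 (+) for IFIT1, chr11:313790-314049 (+) for IFITM1, chr2:162318675-162318934 (-) for IFIH1, chr5:132490764-132491023 (-) for IRF1 and chr2:227813592-227813851 (+) for CCL20.
ISG15: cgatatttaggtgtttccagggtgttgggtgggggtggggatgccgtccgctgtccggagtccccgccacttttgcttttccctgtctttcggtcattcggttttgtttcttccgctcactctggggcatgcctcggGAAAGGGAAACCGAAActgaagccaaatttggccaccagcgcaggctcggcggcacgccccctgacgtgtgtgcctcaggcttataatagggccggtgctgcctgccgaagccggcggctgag
IFIT1: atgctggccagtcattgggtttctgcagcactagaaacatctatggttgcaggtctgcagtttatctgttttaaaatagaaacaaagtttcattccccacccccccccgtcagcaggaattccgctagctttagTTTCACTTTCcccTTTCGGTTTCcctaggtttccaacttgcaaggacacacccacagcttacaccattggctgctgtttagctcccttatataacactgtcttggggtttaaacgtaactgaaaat
IFITM1: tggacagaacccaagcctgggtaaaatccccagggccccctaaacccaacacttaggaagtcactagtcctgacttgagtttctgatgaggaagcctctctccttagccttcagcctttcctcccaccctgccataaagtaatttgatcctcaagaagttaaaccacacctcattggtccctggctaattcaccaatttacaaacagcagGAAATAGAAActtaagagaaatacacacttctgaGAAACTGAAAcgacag
IFIH1: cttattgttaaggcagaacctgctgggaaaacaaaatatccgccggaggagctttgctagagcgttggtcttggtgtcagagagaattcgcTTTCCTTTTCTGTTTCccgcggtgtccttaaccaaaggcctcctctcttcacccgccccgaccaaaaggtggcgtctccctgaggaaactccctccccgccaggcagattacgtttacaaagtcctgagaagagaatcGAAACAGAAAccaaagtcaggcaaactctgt
IRF1: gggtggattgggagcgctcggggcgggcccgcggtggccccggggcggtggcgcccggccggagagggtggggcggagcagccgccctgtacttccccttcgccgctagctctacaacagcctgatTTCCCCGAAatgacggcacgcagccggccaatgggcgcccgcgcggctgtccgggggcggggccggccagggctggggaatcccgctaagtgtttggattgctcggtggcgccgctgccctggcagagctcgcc
CCL20: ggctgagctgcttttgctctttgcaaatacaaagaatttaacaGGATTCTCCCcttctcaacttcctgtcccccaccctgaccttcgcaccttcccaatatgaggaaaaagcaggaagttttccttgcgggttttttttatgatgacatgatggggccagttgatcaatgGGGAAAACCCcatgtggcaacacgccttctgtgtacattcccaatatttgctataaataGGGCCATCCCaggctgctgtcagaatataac
In ISG15 the overlapping matches begin at -113 and -107 relative to the start, and in IFIT1 they lie on the opposite strand at -116 and -103. In IFITM1 they begin at -40 and -6, and IFIH1 has 3 matches, the nearest at -21. None of the promoters of CCL20, CXCL1, CXCL8 and CXCL3 held the ISRE letters and all 4 held the NF-kB-type letters, which 29.1% of fitted genes held. These 4 were listed for scale with earlier results of these data known, and CXCL2, which also rose with LPS, was not listed.

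**Figure D1:**
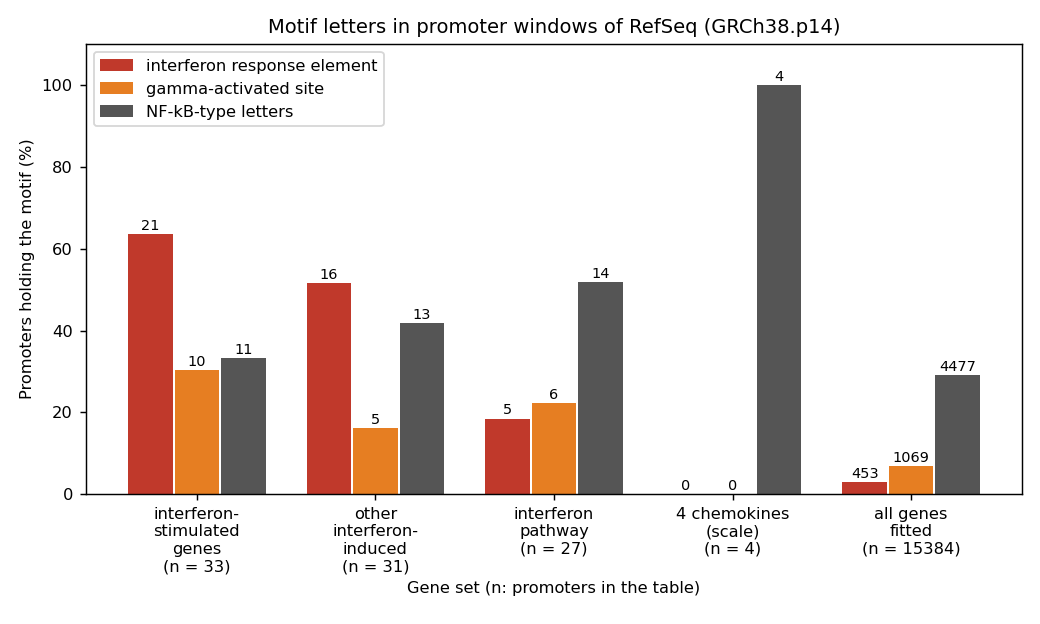
Share of promoter windows (percent, vertical axis) that hold the letters of the interferon-stimulated response element, the gamma-activated site or an NF-kB-type site, in 5 gene sets, with the number of promoters above each bar. The ISRE bar stands at 63.6% for the interferon-stimulated genes and at 2.94% for all fitted genes.

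Levels are deposited log2 values, and differences are LPS minus untreated on the log2 scale. Brightness differs between probe sets for reasons of sequence, so the values of different genes do not rank their transcripts. In whole-well RNA a change in the number of cells of a kind and a change of RNA per cell cannot be told apart. The array medians over all probe sets were 7.034 and 7.030 for LPS and 7.004 and 7.032 for untreated cells, and the near-equal distributions would hide a shift of all transcripts. Untreated replicate 1 stood somewhat apart from the other 3 arrays. Its median absolute gap over genes was 0.109 to LPS replicate 1 and 0.115 to LPS replicate 2, and 0.0913 to untreated replicate 2, whereas the other pairs lay between 0.0723 and 0.0835. The epithelial markers EPCAM, KRT8, KRT18, KRT19 and CDH1 lay above the 99 percentile of probe sets in untreated cells. The other epithelial markers, ELF3 and CLDN4, lay at 89.7 and 84.2. The 7 leukocyte markers measured averaged 6.94 and 7.02 on the LPS arrays and 6.95 and 6.95 on the untreated arrays. In untreated cells they ranged from the 17.3 percentile (CLEC4C) to the 73.1 percentile (CD53). Among them CD53 differed by 0.33 (limma adjusted p = 0.284), and PTPRC read 5.50 to 5.51 with LPS and 5.55 to 5.56 without. The 7 fibroblast and endothelial markers averaged 7.29 and 7.20 with LPS and 7.10 and 7.25 without. Their range in untreated cells was from the 19.8 percentile (CDH5) to the 80.8 percentile (COL1A1). The part of such cells in the results was not tested.

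No interferon-stimulated gene passed the test after 8 h of LPS. In a limma fit across 19775 genes, 0 of 40 members had an adjusted p under 0.05. Over all genes 5 passed (0.0253%), all of them higher chemokine genes, CCL20, CXCL1, CXCL8, CXCL3 and CXCL2. That split of 5 higher and 0 lower became 10 and 8 after quantile normalization or cyclic loess and 10 and 22 after median centring, with 0 members among the calls each time. At an unadjusted p under 0.05, 2 members were higher (5.00%, against 4.71% of all genes) and 3 were lower (7.50%, against 8.19% of all genes), so the members' shares lay near those of all genes. The median difference was -0.0045 over the members and 0.00054 over all genes. Of the 40, 18 lay above 0 (45.0%, against 50.4% of all genes) and 22 below, a split that was 21 and 19 after quantile normalization, 19 and 21 after cyclic loess and 15 and 25 after median centring. Averaged over the 40 genes, the level was 7.66 and 7.63 on the LPS arrays, against 7.67 and 7.63 on the untreated arrays.

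The intervals describe the chosen probe set of each gene. Among the 40, each a 95% interval on its own, the highest upper bound was 1.32-fold, for IRF1, and the lowest lower bound was 0.712-fold, for IFIH1. Other probe sets went further, and over all 69 probe sets of the members, in a fit over all 54613 probe sets, the bounds ran from 0.584-fold, for the fainter EPSTI1 probe set, to 1.46-fold, for the second SAMD9L probe set. For 6 members the mean of the chosen probe set over the 4 arrays lay under the 30 percentile of such means over all probe sets. In untreated cells alone SAMD9L (29.8 percentile) and IRF7 (29.99) lay just under that percentile as well. Where such a probe set is not above background its interval does not bound the change of the transcript. For scale, CCL20 was 7.61-fold higher with LPS and CXCL3 2.02-fold higher, with a lower bound of 0.82 on the log2 scale for CXCL3, above the upper bound of 0.40 for IRF1. An interval that included 0 was found for 35 of the 40 (87.5%, against 87.1% of all genes). In 31 of the 40 genes the difference was smaller in size than the wider of the replicate gaps of that gene (77.5%, against 69.2% of all genes), and in 28 it was under 0.1 (70.0%, against 61.0% of all genes). Both LPS arrays lay above both untreated arrays in 7 members (17.5%, against 20.3% of all genes) and below them in 4 (10.0%, against 23.3% of all genes). A permutation of 2 against 2 arrays cannot give a two-sided p below 0.333, so the calls rest on the fit across genes.

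**Figure D2:**
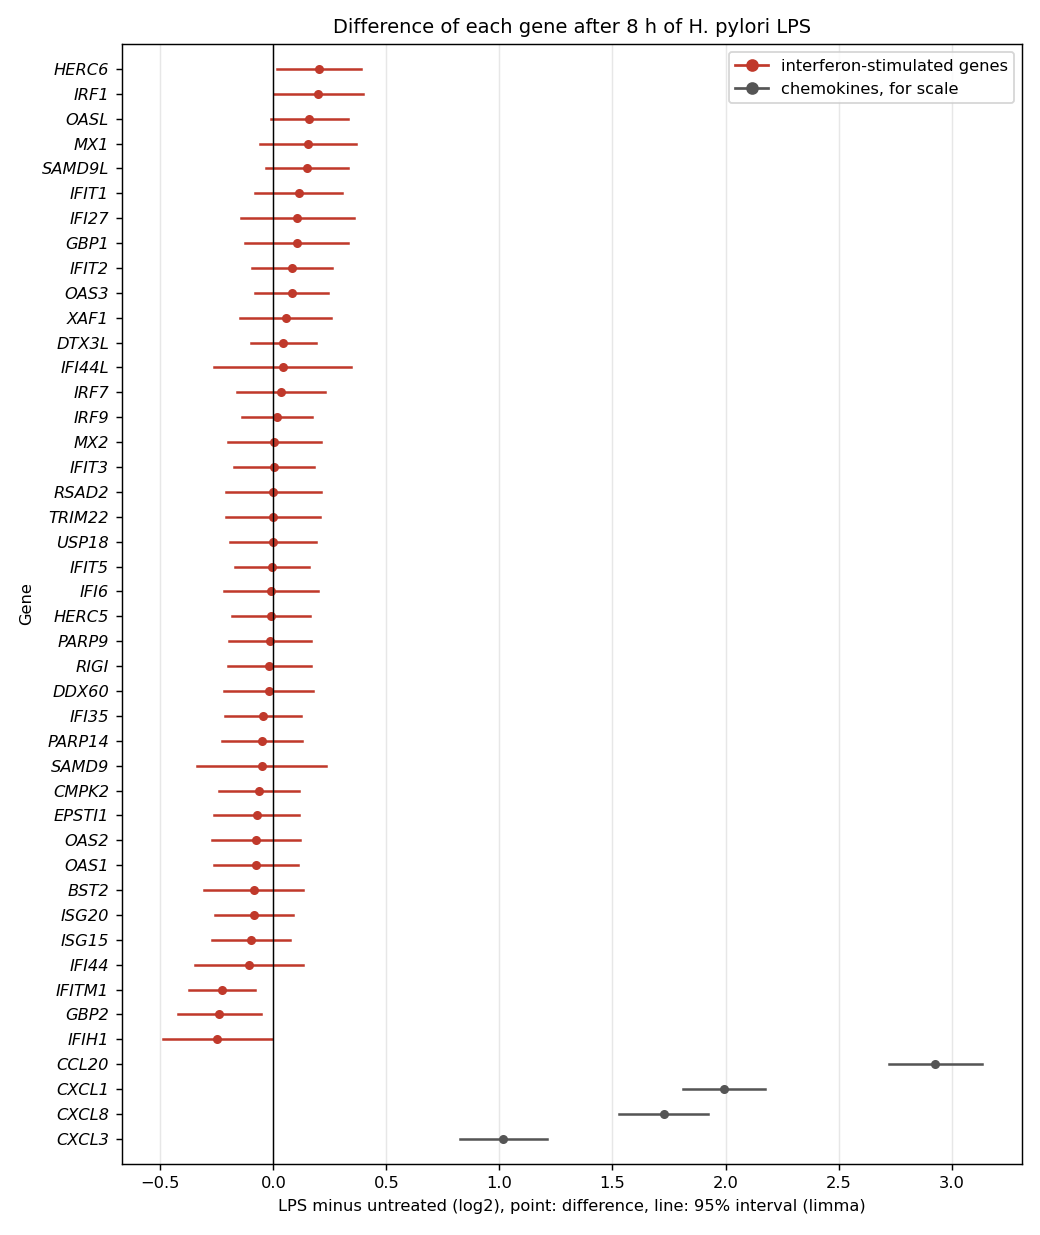
Difference between LPS-treated and untreated cells (log2, horizontal axis) for the 40 interferon-stimulated genes and, below them, 4 chemokine genes, with points for differences and lines for 95% intervals. The members lie between -0.25 for IFIH1 and 0.20 for HERC6, and the chemokine genes between 1.02 and 2.93.

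The IFIT proteins bind viral RNA or hold back its translation. IFIT1 read 5.78 and 5.91 on the LPS arrays, against 5.72 and 5.74 on the untreated arrays, and differed by 0.11 (95% interval -0.08 to 0.30, limma adjusted p = 0.617). The LPS values were the higher ones, on a probe set at the 24.8 percentile of all probe sets. IFIT2 differed by 0.08, IFIT3 by 0.0037 and IFIT5 by -0.0062. IFIT5 had values of 9.07 and 9.02 with LPS and 9.07 and 9.04 without, and these overlapped. Of the 4 genes, 0 passed.

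The OAS enzymes make 2′-5′-linked oligoadenylates, which switch on the nuclease RNase L, and OASL is a related protein without that activity. Values of OAS1 were 9.80 and 9.72 with LPS and 9.93 and 9.74 without, so the groups overlapped (difference -0.08). OAS3 read 9.25 and 9.31 with LPS, above 9.20 and 9.21 without (difference 0.08, interval -0.08 to 0.24). For OASL the LPS arrays read 8.26 and 8.30 and the untreated arrays 8.11 and 8.12. Its difference of 0.16 (interval -0.01 to 0.33, limma adjusted p = 0.415) was matched by 0.13 on its other probe set. OAS2 differed by -0.08, while its 2 fainter probe sets gave 0.17 and 0.10. None of the 4 genes passed.

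ISG15 is a ubiquitin-like protein that is attached to other proteins, HERC5 is its main ligase and USP18 removes it and also restrains the type I receptor. ISG15 read 10.06 and 10.17 with LPS, against 10.28 and 10.14 without, with overlap and a difference of -0.10 (interval -0.27 to 0.07, limma adjusted p = 0.622). HERC5 differed by -0.01 and USP18 by -0.0027. HERC6, a relative of HERC5, read 7.01 and 7.05 on the LPS arrays and 6.79 and 6.87 on the untreated arrays, which did not overlap. At 0.20 (interval 0.02 to 0.39, limma adjusted p = 0.361) its difference was the highest of the 40 members. The other HERC6 probe set, at 5.21 with LPS and 5.22 without, differed by -0.01. None of these 4 genes passed.

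The cytosolic RNA sensors RIGI and IFIH1, which encodes MDA5, start interferon production through MAVS, and DDX60 is a helicase of the same setting. IFIH1 had the lowest difference of the members, at -0.25 (interval -0.49 to -0.0074, limma adjusted p = 0.377). It read 8.39 and 8.44 with LPS, against 8.82 and 8.50 without, so untreated replicate 1 lay far above the other 3 arrays. Without that array the difference was -0.09, and without untreated replicate 2 it was -0.41 (adjusted p = 0.0959). The other IFIH1 probe sets each differed by -0.03. RIGI differed by -0.02 on all 3 of its probe sets, and DDX60 by -0.02. None of the 3 passed.

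IRF9 is the DNA-binding partner of the STATs at the ISRE, IRF7 amplifies interferon production, and IRF1 is a factor that NF-kB and interferon gamma both induce. IRF1 read 8.28 and 8.46 with LPS, above 8.20 and 8.15 without. It differed by 0.20 (interval 0.00092 to 0.40, limma adjusted p = 0.386), a 1.15-fold value, while its second probe set differed by 0.01. IRF9 had 9.52 and 9.52 with LPS, against 9.53 and 9.48 without, and differed by 0.02 (interval -0.14 to 0.17). IRF7 differed by 0.03 on a faint probe set. None of the 3 passed.

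MX1 and MX2 are dynamin-like GTPases that trap viral nucleocapsids, and the guanylate-binding proteins GBP1 and GBP2 act on membranes of intracellular microbes. MX1 read 7.18 and 7.34 with LPS, against 7.03 and 7.18 without, where the groups met at 7.18 (difference 0.15, limma adjusted p = 0.523), and MX2 differed by 0.0045. GBP2 read 7.77 and 7.65 on the LPS arrays, below 7.97 and 7.94 on the untreated arrays. Its difference was -0.24 (interval -0.42 to -0.05, limma adjusted p = 0.302). The fainter GBP2 probe set, with 6.74 and 6.77 with LPS and 7.28 and 7.13 without, differed by -0.45. In a limma fit over all 54613 probe sets this second probe set had an adjusted p of 0.267, the smallest among the 69 probe sets of the members, of which 0 passed (0.00549% of all probe sets passed). GBP1 differed by 0.10, with -0.08 to 0.13 on its fainter probe sets.

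IFITM1 blocks virus entry at membranes, and BST2, known as tetherin, holds budding virus at the cell surface. IFITM1 read 10.46 and 10.36 with LPS, against 10.63 and 10.64 without, with no overlap. It had the smallest p of the members, and its difference was -0.23 (interval -0.37 to -0.08, limma adjusted p = 0.246), a value of 0.854-fold. Over all genes its p ranked 537. In its level decile, from 10.07 to 11.08, the median difference over all genes was -0.05. The IFITM1 probe set is of a kind that can bind related transcripts, and the relatives IFITM2 and IFITM3 differed by 0.07 and 0.02. BST2 read 8.53 and 8.55 with LPS and 8.76 and 8.50 without, and its difference of -0.09 became 0.04 without untreated replicate 1.

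**Figure D3:**
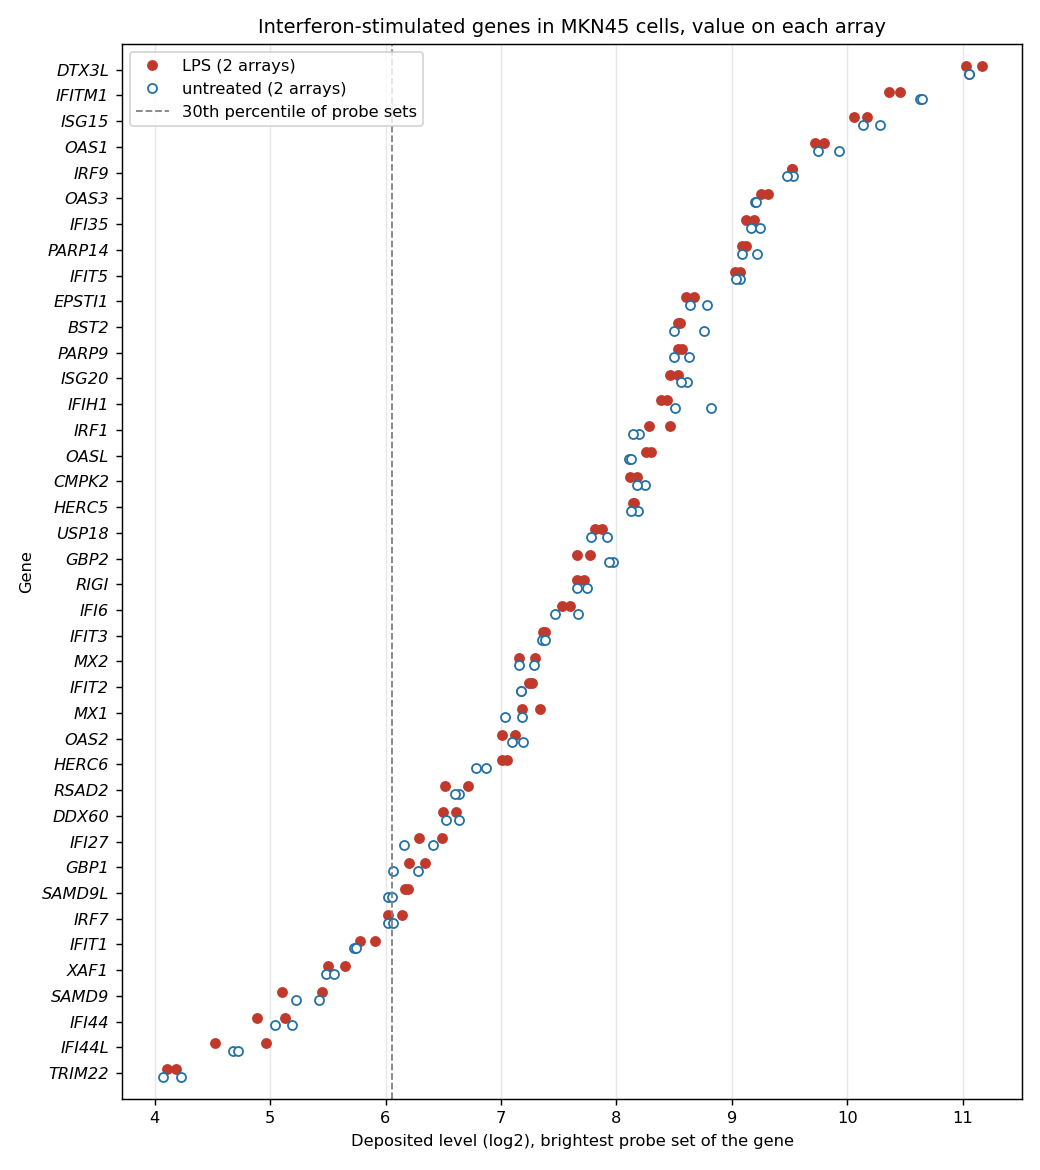
Deposited log2 level (horizontal axis) of each interferon-stimulated gene on each array, with filled points for LPS and open points for untreated cells, ordered by brightness, which does not rank transcripts between genes, and a dashed line at the 30 percentile of probe sets. The 2 kinds of points lie on top of each other or close by in every row, and GBP2, HERC6 and IFITM1 are among the 11 genes whose groups do not overlap. Groups overlap in 72.5% of the members, against 56.4% of all genes.

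RSAD2 encodes viperin, a radical SAM enzyme that makes a chain-terminating nucleotide, and its neighbour CMPK2 encodes a nucleotide kinase. RSAD2 read 6.72 and 6.52 with LPS and 6.64 and 6.60 without, with equal means of 6.62, and CMPK2 differed by -0.06. DTX3L, a ubiquitin ligase, works with the ADP-ribosyltransferase-family protein PARP9. DTX3L read 11.16 and 11.03 with LPS, against 11.06 and 11.05 without, and differed by 0.04 (interval -0.10 to 0.19). PARP9 differed by -0.01 and PARP14 by -0.05, while the fainter probe set of PARP9 gave 0.10 and that of PARP14 gave 0.10. On its chosen probe set PARP14 read 9.08 and 9.13 with LPS and 9.22 and 9.09 without. All 3 genes had overlapping groups on their chosen probe sets (56.4% of all genes did).

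SAMD9 and SAMD9L are paralogous restriction factors of poxviruses. SAMD9L read 6.17 and 6.20 with LPS, above 6.02 and 6.05 without, and differed by 0.15 (interval -0.03 to 0.33, limma adjusted p = 0.470). Its second probe set was only 0.0899 fainter over the 4 arrays. There the LPS arrays read 6.20 and 6.20 and the untreated arrays 5.88 and 5.81, a difference of 0.36 (limma adjusted p = 0.308 over all probe sets), while the third probe set differed by -0.05. SAMD9 lay at 5.45 and 5.10 with LPS and 5.23 and 5.43 without (difference -0.05), and its fainter probe set differed by 0.07. ISG20, an RNA exonuclease, read 8.53 and 8.47 with LPS, below 8.61 and 8.56 without (difference -0.09), though its other probe set differed by 0.02. TRIM22, an antiviral ubiquitin ligase, had the faintest probe set, at the 4.05 percentile, with 4.11 and 4.19 with LPS and 4.23 and 4.07 without.

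The remaining 7 members include the adjacent genes IFI44 and IFI44L, the mitochondrial protein IFI6, IFI27, IFI35, the apoptosis-associated XAF1 and EPSTI1. On the chosen probe sets all 7 had overlapping groups (56.4% of all genes did). IFI44 read 5.13 and 4.89 with LPS and 5.19 and 5.04 without (difference -0.11), and IFI44L 4.96 and 4.52 with LPS and 4.68 and 4.72 without (difference 0.04). IFI35 read 9.12 and 9.20 with LPS, against 9.24 and 9.17 without. IFI27 differed by 0.11, XAF1 by 0.05 and IFI6 by -0.0092. EPSTI1 read 8.67 and 8.60 with LPS and 8.79 and 8.64 without (difference -0.07). Its fainter probe set differed by -0.44 (limma adjusted p = 0.415 over all probe sets), with untreated replicate 1 at 7.01 and replicate 2 at 6.57, above 6.40 and 6.30 with LPS.

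Several probe sets give a view of the same transcript. In all, 22 of the 40 members had more than 1, and in 13 of these all probe sets lay on the same side of 0, against 9 with probe sets on both sides. Among the 69 probe sets of the members, 2 were higher (2.90%, against 3.66% of all probe sets) and 4 lower (5.80%, against 6.42%) at an unadjusted p under 0.05. Untreated replicate 1 was the highest of the 4 arrays for 19 of 40 members (47.5%, against 32.4% of all genes), and untreated replicate 2 for 3 (7.50%, against 19.7%). Without untreated replicate 1 the median difference of the members was 0.02, with 26 above 0 and 14 below.

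**Figure D4:**
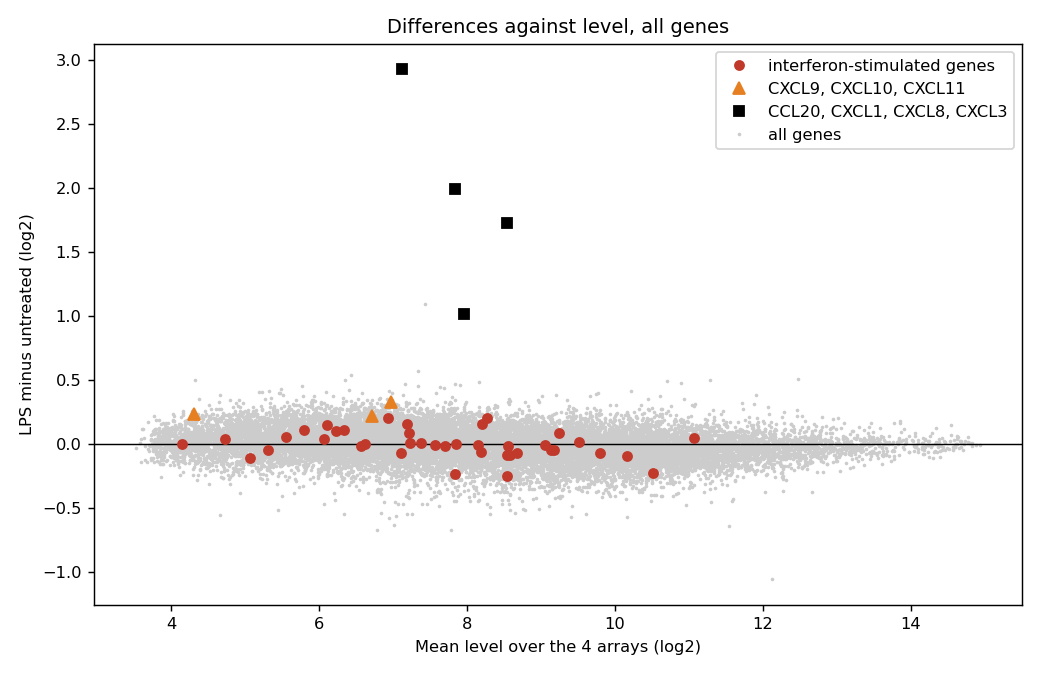
Difference between LPS-treated and untreated cells (log2, vertical axis) against the mean level over the 4 arrays (log2, horizontal axis) for the 40 interferon-stimulated genes, CXCL9 to CXCL11, 4 chemokine genes and all 19775 genes. The members lie within the cloud of all genes at the levels they cover, from -0.25 to 0.20. The highest decile of level, above 11.08, held 0 members.

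Differences were also laid beside the promoter letters, with no test. The 21 members with the letters had differences of -0.25 to 0.15 (median -0.01, 8 above 0 and 13 below), and the 11 fitted members with a promoter but without the letters -0.08 to 0.20 (6 above 0 and 5 below). Of 11 adjacent pairs of members, 2 had differences on the same side of 0, IFIT2 with IFIT3 and MX2 with MX1. The share over all adjacent genes was not computed, so the count is not a result about the members. Some of the signs rest on differences near 0, such as 5e-07 for RSAD2 and -0.0062 for IFIT5. Both of these changed sign under some of the alternatives described below. Among protein-coding genes of the RefSeq table, HERC6 and HERC5 adjoin with differences of 0.20 and -0.01, GBP1 and GBP2 with 0.10 and -0.24, SAMD9 and SAMD9L with -0.05 and 0.15, and OAS1, OAS3 and OAS2 with -0.08, 0.08 and -0.08.

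The pathway that leads to these genes was listed from ligands to inhibitors, and 0 of the 30 measured genes passed in limma (0.0253% of all genes did). At an unadjusted p under 0.05 there was 1 on each side (3.33% each, against 4.71% higher and 8.19% lower of all genes). Both LPS arrays lay above both untreated arrays in 4 of the 30 (13.3%, against 20.3% of all genes) and below them in 10 (33.3%, against 23.3%). Among ligands, interferon beta, IFNB1, read 6.26 and 6.20 with LPS, against 6.05 and 6.30 without, with overlap (difference 0.05, interval -0.17 to 0.28). The type III ligand IFNL1 differed by 0.0089 (interval -0.21 to 0.23). IFNL2, which has close paralogs that a probe set may also bind, differed by 0.25 (limma adjusted p = 0.380), and IFNA1 by -0.11. In untreated cells the probe sets of IFNB1, IFNL2 and IFNA1 lay at the 32.4, 20.7 and 7.39 percentiles. Of the 7 measured ligands, 5 (71.4%, against 17.8% of all genes) had means under the 30 percentile of all probe sets. Where a ligand probe set is not above background, its interval does not bound the change of the transcript. The receptor chains IFNAR1, IFNAR2 and IFNLR1 differed by 0.16, 0.0022 and 0.04. IL10RB, shared by type III interferons and interleukin 10, differed by -0.15. The Janus kinases JAK1, TYK2 and JAK2 differed by -0.06, 0.04 and 0.13.

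On the route from TLR4, the adaptor TRIF, encoded by TICAM1, read 8.12 and 8.06 with LPS, against 8.05 and 8.05 without (difference 0.04), and IRF3 differed by 0.07 (interval -0.10 to 0.23). STING1, the adaptor of DNA sensing, differed by 0.28, with overlapping groups of 7.04 and 6.67 with LPS and 6.40 and 6.75 without, and the DNA sensor CGAS by -0.12. Of 6 inhibitors, 5 had both LPS arrays below both untreated arrays (23.3% of all genes did). That share is over genes of all levels, while the median difference over all genes varied with level. It was 0.04 in level decile 2 and -0.05 in decile 9. The part of level in the inhibitors' differences was not tested. IRF2, a repressor at the ISRE, read 9.13 and 9.09 with LPS and 9.34 and 9.24 without (difference -0.18, limma adjusted p = 0.364). The phosphatase PTPN2 differed by -0.14.

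A further 33 measured interferon-induced genes outside the 40 were listed in the same way. None passed in limma. Without adjustment, p was under 0.05 for 5 higher genes (15.2%) and 2 lower genes (6.06%), against 4.71% and 8.19% of all genes. In 13 of the 33 both LPS arrays lay above both untreated arrays (39.4%, against 20.3% of all genes), and in 5 below them (15.2%, against 23.3%). The list was chosen with earlier results of these data known, so its shares are a description and were not tested. CXCL9, a lymphocyte attractant known for its induction by interferon gamma, read 7.07 and 7.19 with LPS, above 6.77 and 6.83 without. Its difference was 0.33 (interval 0.14 to 0.52, limma adjusted p = 0.222). CXCL10 read 6.91 and 6.73 with LPS, above 6.63 and 6.57 without, and differed by 0.22 (interval 0.0081 to 0.42, adjusted p = 0.375). CXCL11 differed by 0.23 on a faint probe set at the 4.52 percentile, the apolipoprotein gene APOL6 by 0.27 and LAMP3 by 0.20; these 3 were named after their values were seen. SP100, a nuclear body protein, differed by -0.21 (adjusted p = 0.310), and its LPS values did not overlap the untreated ones.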

How the data were processed

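The tools named are MAS5 and RMA, per the submitters' processing notes. Which of them made the deposited values, and the genome build, are not given in the sources used here. The values deposited by the authors were taken as log2 levels, as judged from their range. The 62 control probe sets were left out, which left 54613, and nothing was normalized again. Symbols came from the platform annotation, and 41037 of 41091 probe sets with a single symbol matched the RefSeq table by Entrez identifier. LPS and untreated arrays were compared with limma 3.58.1 in R 4.3.3 (lmFit, eBayes with trend), two-sided, on 19775 genes without a level filter and without a block, with Benjamini-Hochberg adjustment over all of them and 8.72 degrees of freedom. Percentiles are of all probe sets in untreated cells. Members and lists were chosen with earlier results of these data known. Named were all members, with per-array values for the brightest 10, the faintest 4, the largest rises and falls (6 each) and the smallest 4 p-values, and in other lists the 2 smallest p-values and some fixed genes; IFNA1, IL10RB, JAK2, STING1, CGAS and PTPN2 were named after their values were seen. The 16 alternatives changed level filters, normalization, moderation, probe-set choice, threshold, block and arrays. The procedure was tested on simulated data. Whether the arrays come from separate cultures is known only from the series text, so p-values measure the spread between these arrays. The number of arrays limits the precision.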

Additional observations from a re-analysis of the deposited data

How the results depend on the processing

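The count of interferon-stimulated genes past the threshold was 0 in limma under each of 16 alternatives, as were those of the pathway list and of the other interferon-induced list. At an unadjusted p under 0.05 there were 0 to 3 higher and 0 to 4 lower members. The median difference of the members lay between -0.02 and 0.02. The members' median level had an SD of 0.05 between replicate arrays, which is a spread of levels and not of differences. The smallest adjusted p of a member was 0.0959, for IFIH1 without untreated replicate 2. The sign held under every alternative that could be fitted for 14 of 40 members and turned under at least 1 for 26. HERC6, IRF1, OASL, IFITM1, GBP2 and IFIH1 were among the 14. The level filters, moderation, block, threshold and the fit over all probe sets leave a fitted member's difference unchanged, so they could not turn a sign. Leaving out 1 array cannot turn it either where the groups do not overlap, as in the genes just named. Of the 40 members, a filter at the 30 percentile of level left 34, a filter at the 50 percentile 27, and leaving out _x_at and _s_at probe sets 33.

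The count over all genes, 5 in the reported limma fit (all higher), moved more. It was 10 with the filter at the 30 percentile (5 higher and 5 lower), 9 at the 50 percentile (5 higher and 4 lower), 18 by cyclic loess and likewise by quantile normalization (10 higher and 8 lower each), 32 after median centring (10 higher and 22 lower), 3 over all probe sets and 15 at an adjusted p under 0.1 (7 higher and 8 lower). The cause was not tested, beyond the fewer or more features tested and the looser threshold. Without 1 array it was 3 to 5, being 3 without LPS replicate 1, LPS replicate 2 or untreated replicate 2. With the replicate number as a block it was 20 (9 higher and 11 lower), and 0 members passed. Deviations of same-numbered arrays from their group means correlated at 0.0717 over genes, with 2 pairs, so the numbers were not taken to pair the arrays. In fits on 3 arrays, the group with a single array was given the spread of the other group.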
